A study of Mus musculus with 10 samples.

Results

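The 38 genes described here encode the kinetochore, the chromosomal passenger complex and the spindle assembly checkpoint of dividing mouse cells. They were chosen by gene symbol, and all 38 were found among the 49671 gene IDs of the deposited table of normalized counts. The kinetochore is the protein assembly that is built on each centromere and holds spindle microtubules during mitosis. The chromosomal passenger complex, made of the kinase Aurora B, the scaffold INCENP, Borealin and Survivin, releases faulty attachments, and the spindle checkpoint holds back anaphase until all chromosomes are attached. Most of these genes are transcribed late in the cell cycle, so that in skin their RNA is highest in proliferating keratinocytes. Survivin itself, the product of Birc5, was the gene altered in the mice and is not one of the 38.

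The study isolated SmoM2-YFP-positive epidermal cells by FACS and sequenced polyA RNA from 2 libraries in each of 5 groups. SmoM2 is a constantly active form of the Hedgehog signal transducer Smoothened that starts basal cell carcinoma in mouse skin. All 5 groups carried Rosa-SmoM2, switched on by a tamoxifen-inducible Cre. The LOF group had Krt14-CREER, active in basal keratinocytes, with Survivin LOF, at 6 weeks. The GOF group had Inv-CREER, driven by the Involucrin promoter of more differentiated keratinocytes, with Krt14rtTA and Survivin-GOF, at 8 weeks. The groups without a Survivin allele were Krt14-CREER at 8 weeks, Krt14-CREER at 6 weeks and Inv-CREER at 8 weeks, called Krt14 8w, Krt14 6w and Inv below. The weeks are those that the titles give beside TAM. The labels list no Krt14rtTA for the Inv group, do not say what kind of allele the LOF is, and do not give the age or sex of the animals or whether libraries came from separate animals. The sample descriptions mark both Inv libraries, and no others, as pools, without saying what was pooled. The p-values below therefore measure the spread between libraries.

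Birc5 was at 382 and 429 normalized counts in LOF, against 961 and 1103 in Krt14 6w. It was at 7277 and 16384 in GOF, against 237 and 265 in Inv, and at 1005 and 926 in Krt14 8w. Levels thus matched the labels, and the GOF libraries were far apart from each other. The libraries also differed in the sex-linked transcript Xist, which was at 30024 and 59594 in LOF, 7589 and 56185 in GOF, and 194 or less in each of the other 6 libraries. The Y-linked gene Ddx3y was above 900 in every library, so the LOF and GOF libraries held both transcripts. High Xist thus fell together with the Survivin alleles, and the part of Xist-linked differences in the LOF and GOF results cannot be told apart from that of Survivin. Of the 8 keratinocyte markers none was at 0. The summed melanocyte markers were at 3175 and 3016 in LOF, 2075 and 1880 in GOF, 1374 and 1538 in Krt14 8w, 942 and 901 in Krt14 6w, and 2407 and 2505 in Inv, with 7 of 8 markers higher in LOF than in Krt14 6w. The summed fibroblast markers, nearly all from Dcn, were at 18817 and 19188 in LOF, 37656 and 14803 in GOF, 2441 and 1805 in Krt14 8w, 2673 and 1300 in Krt14 6w, and 17944 and 19983 in Inv. This sum follows 1 gene and is no measure of fibroblast content. Of the 6 fibroblast markers, 2 were called higher in LOF than in Krt14 6w and 4 were not called. Col1a1 was at 117 and 93 in LOF and 218 and 75 in Krt14 6w, and Col3a1 at 30 and 21 against 103 and 24. Immune marker sums lay at 203 or less in every library, and Lyz2 was at 0 in both libraries of LOF, GOF and Krt14 6w. The part of these other cell types in the results below was not tested.

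All 38 genes were well measured. The lowest value of any of them in any library was 82 (Spc24 in GOF) and the highest 6233 (Cenpf in Krt14 8w), against a value of 6.76 to 7.80 for 3 reads, depending on the library. Per kilobase of annotated exon in Krt14 6w, the highest levels were those of Cdc20, the activator of the anaphase-promoting complex, at 852 ± 93.9, Incenp at 618 ± 1.96 and the mitotic kinase gene Plk1 at 500 ± 33.8 (SD, n = 2). The spread of Cdc20 and that of Incenp did not overlap. The lowest were Cenpw at 43.9, Cenpk at 43.7 and Nsl1 at 42.6. The median normalized count over the 38 genes was 513.5 and 478.5 in LOF, 393.5 and 363 in GOF, 723.5 and 661 in Krt14 8w, 669 and 678.5 in Krt14 6w, and 531 and 529 in Inv. The 4 Krt14 libraries without a Survivin allele were thus the highest and the GOF libraries the lowest, with LOF and Inv between them.

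**Figure D1:**
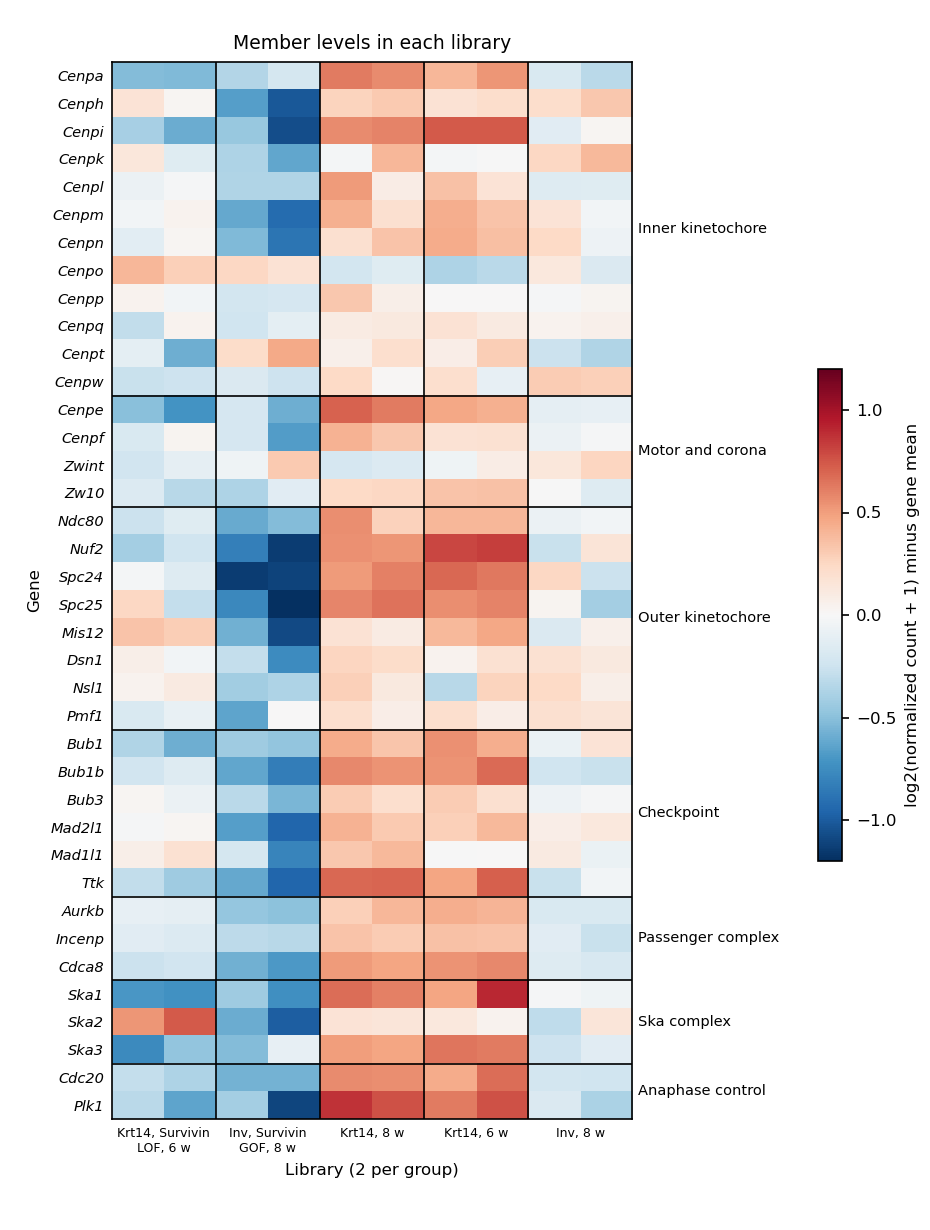
Level of each of the 38 genes in each of the 10 libraries, as log2(normalized count + 1) minus the gene's mean over libraries (red above the mean, blue below). Genes are in rows by role and libraries in columns, 2 per group. The Krt14 8w and Krt14 6w columns are red for most genes, while Cenpo and Ska2 are highest in the LOF columns.

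The first comparison asked how the machinery that Survivin works in changed when Survivin was reduced in basal SmoM2 cells. In LOF, 18 of the 38 genes fell and 2 rose against Krt14 6w. Over all 21995 genes tested, 30.9% were called in either direction, 11.4% lower and 19.5% higher (limma on log2(normalized count + 1), Benjamini-Hochberg adjusted p under 0.05). The falls ran from -1.40 to -0.50 on the log2 scale. The median log2 change was -0.48 over the 38 genes and 0.16 over all genes tested. Median-of-ratios rescaling brought the median of all genes from 0.16 to 0.02, a downward shift of all genes together. After it, 24 of the 38 fell and 1 rose. The share of all genes called lower after rescaling is not given here. In bulk RNA, fewer dividing cells and less RNA per cell cannot be told apart. With log2 Xist as a covariate 1 of the 38 was called, and with Xist on a linear scale 18 fell and 1 rose.

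In the inner kinetochore, which binds centromeric DNA and histones, 3 of 12 genes fell and 1 rose. Cenpa, the histone H3 variant that marks the centromere (ENSMUSG00000029177, chr5:30666777-30674830, plus strand, GRCm38), had 702 and 697 normalized counts in LOF, against 1328 and 1460 in Krt14 6w. Both LOF libraries were the lowest of all 10 for Cenpa, and the log2 change was -0.99 ± 0.11 (SE, limma adjusted p = 0.000111). Cenpi, of the complex with Cenph, Cenpk and Cenpm that recruits further centromere proteins, had 236 and 206 in LOF and 521 and 520 in Krt14 6w (log2 change -1.24). Its partners did not pass the test: Cenph had 313 and 285 in LOF and 316 and 323 in Krt14 6w, and Cenpk 253 and 208 against 227 and 230. Cenpm had 189 and 199 in LOF and 263 and 246 in Krt14 6w, lower without overlap (log2 change -0.39). Cenpt, which links the centromere to the Ndc80 complex, had 370 and 267 in LOF and 423 and 491 in Krt14 6w (log2 change -0.53). Cenpo was the one inner kinetochore gene to rise, at 662 and 614 in LOF against 390 and 403 in Krt14 6w. Its 2 LOF libraries were above all the other 8, with a log2 change of 0.68 ± 0.14 (SE, limma adjusted p = 0.00419). Cenpo overlaps Adcy3 in the annotation, and Adcy3 had 1596 and 1531 in LOF and 653 and 685 in Krt14 6w. The strand setting of the counting is not given, and the share of Adcy3 reads in the Cenpo value was not tested.

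Among motor and corona genes, 2 of 4 fell. Cenpe, the kinesin that carries chromosomes towards the spindle equator, had 1586 and 1369 normalized counts in LOF, against 3093 and 3027 in Krt14 6w. The groups were far apart, with a log2 change of -1.05 ± 0.13 (SE, limma adjusted p = 0.000169). The change was 0.06 with log2 Xist as a covariate (limma adjusted p = 0.951). That covariate is nearly the same column as the presence of a Survivin allele, so this fit has little information on LOF. Over all comparisons, 18 of the 28 results of named genes lost their call under it, so this is not particular to Cenpe. Zw10, part of the complex that brings dynein to kinetochores, had 724 and 645 in LOF and 1030 and 1039 in Krt14 6w (log2 change -0.60). Cenpf, at 4094 and 4771 in LOF and 5267 and 5287 in Krt14 6w, and Zwint, at 774 and 841 against 875 and 964, did not pass.

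In the outer kinetochore, the fall was in the Ndc80 complex, which grips microtubules, and none of the 4 genes of the Mis12 complex beneath it passed. Nuf2 had 442 and 497 normalized counts in LOF, against 1023 and 1039 in Krt14 6w (log2 change -1.14 ± 0.17 SE, limma adjusted p = 0.000532). Ndc80 had 461 and 497 in LOF and 724 and 726 in Krt14 6w, and Spc24 had 179 and 163 against 294 and 282. In each of these 3 genes both LOF libraries lay below both Krt14 6w libraries. Spc25, the fourth subunit, had 496 and 341 in LOF and 614 and 631 in Krt14 6w and missed the threshold (adjusted p = 0.0615). Mis12, at 989 and 956 in LOF and 1020 and 1075 in Krt14 6w, Dsn1, Nsl1 and Pmf1 had log2 changes between -0.27 and 0.11.

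Of the 6 checkpoint genes, 3 kinases or kinase-like genes fell. Bub1b, encoding the checkpoint protein BubR1 (ENSMUSG00000040084, chr2:118598211-118641591, plus strand), had 1026 and 1078 normalized counts in LOF, against 1746 and 1932 in Krt14 6w (log2 change -0.80 ± 0.11 SE, limma adjusted p = 0.000406). The kinase gene Bub1 had 533 and 458 in LOF and 1006 and 928 in Krt14 6w, and Ttk, the kinase Mps1, had 531 and 483 against 906 and 1070. No LOF library reached a Krt14 6w library for any of the 3. Mad2l1, whose product binds and blocks Cdc20, had 897 and 923 in LOF and 1104 and 1188 in Krt14 6w (adjusted p = 0.0665). Bub3 had 1403 and 1313 against 1706 and 1578, and Mad1l1 860 and 932 against 817 and 824, and neither passed.

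The 3 passenger genes measured beside Survivin all fell. Cdca8, encoding Borealin (ENSMUSG00000028873, chr4:124918465-124939311, minus strand), had a log2 change of -0.81 ± 0.10 (SE, limma adjusted p = 0.000227). Its normalized counts were 930 and 945 in LOF and 1617 and 1661 in Krt14 6w. The gene 9930104L06Rik overlaps Cdca8 and had 315 and 350 in LOF and 208 and 223 in Krt14 6w. The share of its reads in the Cdca8 value was not tested. The scaffold gene Incenp had 1911 and 1872 in LOF and 2683 and 2671 in Krt14 6w, and the log2 change was -0.50. Aurkb changed by -0.52, and each passenger gene thus fell by less than Birc5, whose log2 change was -1.34 ± 0.28 (SE), though these differences between genes were not tested.

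The Ska complex, which helps kinetochores keep hold of shrinking microtubules, was split. Ska1 (chr18:74195299-74207818, minus strand) had 132 and 129 normalized counts in LOF, against 297 and 403 in Krt14 6w, the largest fall of the 38 (log2 change -1.40 ± 0.20 SE, limma adjusted p = 0.000478). Ska3 had 196 and 239 in LOF and 519 and 514 in Krt14 6w (-1.25 ± 0.18 SE, adjusted p = 0.000464). For both genes the LOF libraries sat below all 6 libraries without a Survivin allele. Ska2 (chr11:87109234-87124635, plus strand) went the other way, with 617 and 708 in LOF and 466 and 437 in Krt14 6w. These were its 2 highest libraries, but the rise was close to the threshold (0.55 ± 0.19 SE, limma adjusted p = 0.0453) and was lost on leaving out any of the 4 libraries (adjusted p of 0.0833 to 0.229) and after median-of-ratios rescaling (0.41, adjusted p = 0.111). Gm11491 overlaps Ska2 and had 199 and 199 in LOF and 161 and 132 in Krt14 6w. Sap18 overlaps Ska3 and had 759 and 801 in LOF and 925 and 966 in Krt14 6w. The share of overlapping reads in the Ska2 and Ska3 values was not tested. Both genes of anaphase control fell. Cdc20 had 880 and 832 in LOF, against 1467 and 1715 in Krt14 6w (-0.89 ± 0.11 SE, limma adjusted p = 0.000207). The LOF and Krt14 6w libraries did not overlap for Cdc20, nor for Plk1, which had 543 and 438 in LOF and 1047 and 1152 in Krt14 6w (-1.17). Cdc20 overlaps Elovl1, which had 605 and 555 in LOF and 1496 and 1485 in Krt14 6w.

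**Figure D2:**
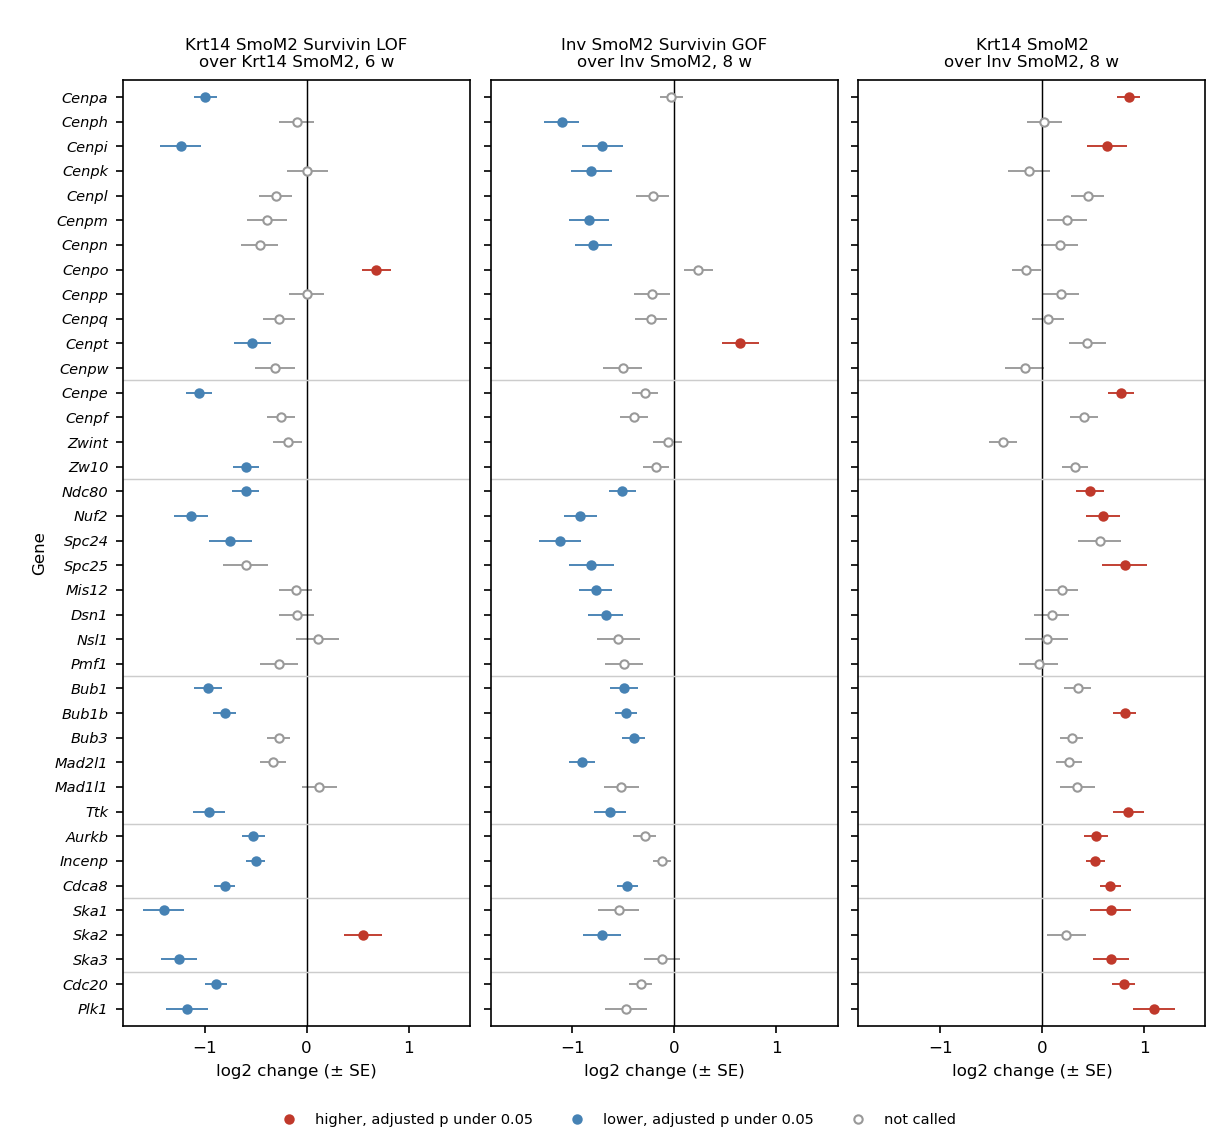
Log2 change with its standard error for each of the 38 genes in LOF over Krt14 6w, GOF over Inv and Krt14 8w over Inv (filled points passed the adjusted p of 0.05, red higher and blue lower). Cenpo and Ska2 are the red points in LOF over Krt14 6w, Cenpt is the red point in GOF over Inv, and there is no blue point in Krt14 8w over Inv.

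The start regions of the genes that moved together were read for the cell cycle homology region (CHR), which late cell cycle genes are known to carry, and for the CCAAT box often found beside it. A RefSeq promoter window (GRCm38.p6, 250 bases before to 50 bases after the gene start) was matched for 33 of the 38 genes. The 4 below are shown because each fell with LOF as the clearest of its class and holds both motifs. Capitals mark TTTGAA or TTCGAA (CHR) and CCAAT, on either strand, so that ATTGG is CCAAT on the other strand. The windows are chr5:30666636-30666935 on the plus strand for Cenpa, chr4:124936868-124937167 on the minus strand for Cdca8, chr2:118597961-118598260 on the plus strand for Bub1b and chr4:118437294-118437593 on the minus strand for Cdc20.
Cenpa: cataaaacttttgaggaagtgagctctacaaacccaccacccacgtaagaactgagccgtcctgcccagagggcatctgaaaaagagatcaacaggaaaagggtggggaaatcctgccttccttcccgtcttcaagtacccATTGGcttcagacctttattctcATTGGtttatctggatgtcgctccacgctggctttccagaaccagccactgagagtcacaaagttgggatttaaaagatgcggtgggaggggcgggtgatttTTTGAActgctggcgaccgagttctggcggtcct
Cdca8: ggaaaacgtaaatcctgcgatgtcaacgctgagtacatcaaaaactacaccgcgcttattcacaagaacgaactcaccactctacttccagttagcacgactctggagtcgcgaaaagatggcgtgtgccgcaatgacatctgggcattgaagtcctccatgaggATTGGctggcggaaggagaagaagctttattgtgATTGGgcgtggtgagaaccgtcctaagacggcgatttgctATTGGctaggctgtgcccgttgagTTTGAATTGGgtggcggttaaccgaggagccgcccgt
Bub1b: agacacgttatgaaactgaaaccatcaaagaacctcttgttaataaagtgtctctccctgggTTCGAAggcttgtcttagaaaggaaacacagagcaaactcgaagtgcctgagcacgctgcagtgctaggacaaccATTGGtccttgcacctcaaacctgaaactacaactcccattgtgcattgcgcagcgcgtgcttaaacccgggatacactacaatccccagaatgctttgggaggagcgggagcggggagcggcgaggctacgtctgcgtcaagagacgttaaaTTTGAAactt
Cdc20: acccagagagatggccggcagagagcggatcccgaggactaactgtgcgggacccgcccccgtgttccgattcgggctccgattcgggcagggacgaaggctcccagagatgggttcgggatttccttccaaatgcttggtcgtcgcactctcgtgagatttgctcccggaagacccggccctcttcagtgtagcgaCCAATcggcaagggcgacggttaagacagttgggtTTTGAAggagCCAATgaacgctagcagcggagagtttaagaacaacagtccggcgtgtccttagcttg
In Cdc20 the TTTGAA begins 18 bases before the start, and in Cdca8 and Cenpa it begins 13 and 16 bases after it. In Cdca8 it shares its last base with an ATTGG. A CHR letter string stood in 18 of the 33 windows (54.5%), against 21.7% of the 27025 genes in the promoter table. CCAAT stood in 23 of 33 (69.7%, against 41.1%), and both stood in 15 (45.5%, against 8.61%). Of the 18 genes that fell with LOF, 14 had a window, and the CHR string was present in 10 of these 14 (71.4%). It was present in 8 of the 17 genes with a window that were not called (47.1%) and in 0 of the 2 that rose. CCAAT went the other way, in 9 of the 14 that fell (64.3%) and 13 of the 17 not called (76.5%), and both motifs stood in 50% and 47.1% of these. A match describes letters in the window and is neither a binding site nor a cause.

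A set of 12 other mitotic genes, among them Mki67 and Top2a, served as a measure of the general level of mitotic RNA. Of these 12, 11 fell with LOF, with a median log2 change of -0.83. When every gene was expressed relative to their mean in the same library, 16 of the 38 genes were higher and 1 was lower in LOF, where 62.4% of all genes were higher and 2.95% lower (65.4% called). The 38 genes had a median of 0.32 on this relative scale. Cenpo, at 1.49, and Ska2, at 1.35, stood highest relative to the mitotic genes. Ska1 was the one below them (relative log2 change -0.60 ± 0.19 SE, limma adjusted p = 0.0171). Cenpa (-0.19), Cenpe (-0.25) and Ska3 (-0.45), which fell on the plain log2 scale, missed the threshold on the relative one.

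The second comparison asked what raised Survivin did in the SmoM2 cells of the Involucrin lineage. In GOF, 18 of the 38 genes fell and 1 rose against Inv, where 15.3% of all genes were called, 8.4% lower and 6.87% higher. The falls ran from -1.12 to -0.40 on the log2 scale. The median log2 change was -0.49 over the 38 genes and -0.01 over all genes tested. This count was fragile. It was 8 without GOF replicate 2, which had the higher Birc5 and an endothelial marker sum of 1160, against 327 in replicate 1 and 241 and 290 in Inv. It was 5 without Inv replicate 1, 4 without Inv replicate 2, and 0 when only the 4 libraries compared were fitted. It was also 0 with log2 Xist as a covariate and 6 with Xist on a linear scale. The endothelial part in these falls was not tested.

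With GOF, 5 of 12 inner kinetochore genes fell and Cenpt rose. Cenph had 176 and 138 normalized counts in GOF, against 324 and 350 in Inv (log2 change -1.11 ± 0.17 SE, limma adjusted p = 0.00202). The GOF libraries were the lowest 2 of all 10 for Cenph. Its complex partners Cenpi, Cenpk and Cenpm fell too, Cenpk with 178 and 149 in GOF against 274 and 301 in Inv, and Cenpm with 126 and 102 against 217 and 190. Cenpn, which reads Cenpa nucleosomes together with Cenpl, had 207 and 162 in GOF and 353 and 287 in Inv. Cenpa itself had 792 and 871 in GOF and 890 and 807 in Inv, so that the groups overlapped (log2 change -0.03 ± 0.11 SE). Cenpt had 467 and 549 in GOF and 335 and 312 in Inv, a rise of 0.65 ± 0.18 (SE, limma adjusted p = 0.036). That call was lost without GOF replicate 2 (adjusted p = 0.146) and without either Inv library (0.123 and 0.192). Tsnaxip1, which overlaps Cenpt, had 53 and 65 in GOF and 26 and 30 in Inv.

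Outer kinetochore genes fell in 6 of 8 cases with GOF, including all 4 of the Ndc80 complex. Spc24 had 82 and 84 normalized counts in GOF, against 217 and 152 in Inv, the largest fall of the 38 in this comparison (log2 change -1.12 ± 0.21 SE, limma adjusted p = 0.00564, and 0.0646 without Inv replicate 1). Nuf2 had 330 and 266 in GOF and 485 and 651 in Inv (-0.92 ± 0.17 SE, adjusted p = 0.0047). The GOF libraries were the lowest of the 10 for both genes. Mis12 and Dsn1, of the complex that joins inner and outer kinetochore, also fell. Mis12 had 522 and 367 in GOF and 690 and 809 in Inv, and Dsn1 had 315 and 227 against 437 and 416. All 4 motor and corona genes missed the threshold in GOF, and Cenpe had 1948 and 1498 in GOF and 2078 and 2096 in Inv.

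Checkpoint genes fell in 5 of 6 cases, and Mad2l1 had the smallest p of the 38. Mad2l1 (chr6:66535390-66547220, plus strand) had 573 and 468 normalized counts in GOF, against 956 and 987 in Inv (log2 change -0.91 ± 0.12 SE, limma adjusted p = 0.00108). Its GOF libraries were well below all other 8. Bub1b had 782 and 676 in GOF and 1022 and 999 in Inv, Ttk had 426 and 336 against 540 and 637, and Bub3 1102 and 944 against 1322 and 1367. Among the passenger genes, Cdca8 fell, with 746 and 687 in GOF and 999 and 971 in Inv (-0.46 ± 0.10 SE, adjusted p = 0.0129). Aurkb, at 503 and 494 in GOF and 610 and 610 in Inv, and Incenp, at 1693 and 1667 against 1912 and 1750, did not pass, although no GOF library reached an Inv library for either gene. Ska2 fell, with 282 and 214 in GOF and 344 and 470 in Inv (-0.71 ± 0.19 SE, adjusted p = 0.0275). Its log2 change ran from -0.93 to -0.48 on leaving out each of the libraries compared. Gm11491, which overlaps Ska2, had 82 and 76 in GOF and 110 and 163 in Inv. Ska1 had 159 and 128 in GOF and 212 and 206 in Inv, and Ska3 had 231 and 310 against 280 and 303. Neither passed, nor did Cdc20, at 727 and 726 in GOF and 920 and 908 in Inv, or Plk1, at 510 and 315 against 599 and 520.

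Relative to the 12 mitotic genes, of which 6 fell with GOF (median log2 change -0.45), 4 of the 38 genes were higher and 3 lower, where 31% of all genes were higher and 3.24% lower (34.3% called). The higher ones were Cenpt (1.13), Cenpo (0.71), Cenpa (0.45) and Incenp (0.36). The lower ones were Spc24 (-0.64), Cenph (-0.63) and Mad2l1 (-0.43). Replication genes, a list of 15 that includes none of the 38, all fell with GOF, with a median log2 change of -1.22. With LOF 2 of those 15 fell and 1 rose, where 11.4% of all genes were lower and 19.5% higher. Their log2 change with LOF was negative for 14 of the 15, with a median of -0.25, against 0.16 over all genes tested.

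**Figure D3:**
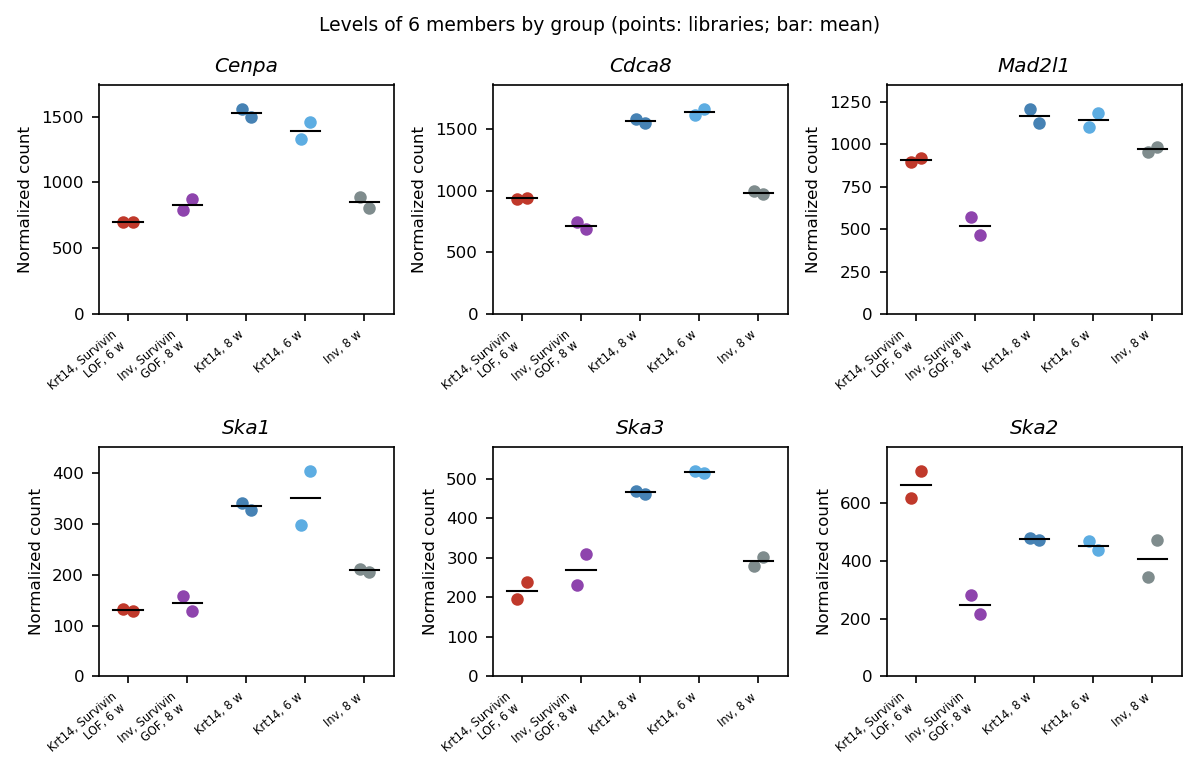
Normalized counts of 6 of the genes in each library (points) with the group mean (bar). Cenpa, Cdca8, Ska1 and Ska3 are lower in LOF than in Krt14 6w, Mad2l1 is lowest in GOF, and Ska2 is highest in LOF and lowest in GOF.

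The falls with LOF and with GOF overlapped in 8 genes, 44.4% of each list of 18. This share was no higher than the 18 of 38 that fell in each comparison. The LOF and GOF comparisons share no library, but each gene has the same estimate of spread in both, so their calls are not independent. Over all genes tested, 411 fell in both, 16.4% of the falls with LOF and 22.2% of the falls with GOF. The 8 were Cenpi, Ndc80, Nuf2, Spc24, Bub1, Bub1b, Ttk and Cdca8. The difference between the LOF change and the GOF change passed the test for 8 of the 38 genes, 5 with a more negative and 3 with a more positive LOF change, where 23.7% of all genes passed (8.34% and 15.3%). The more negative ones were Cenpt (-1.18), Ska3 (-1.13), Cenpa (-0.96), Cenpe (-0.76) and Cdc20 (-0.56). Ska2 (1.26), Cenph (1.01) and Mad2l1 (0.57) were the more positive ones. After median-of-ratios rescaling, 12 were more negative and 2 more positive, and the matching shares of all genes are not given here. Of the 10 genes called lower in LOF and not in GOF, 5 passed this test in the main fit. Plk1, Aurkb, Incenp, Ska1 and Zw10 did not. These 10 were picked by their calls in the same libraries, which favours a negative difference, so their count is descriptive only.

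The third comparison set basal-driven against Involucrin-driven SmoM2 cells at 8 weeks, both without a Survivin allele. In Krt14 8w, 15 of the 38 genes were higher than in Inv and 0 were lower, where 19.6% of all genes were called, 8.18% higher and 11.4% lower. The 15 had log2 changes from 0.47 to 1.09. The median was 0.38 over the 38 genes and -0.10 over all genes tested. At unadjusted p under 0.05, 23 of the 38 passed here, beside 24 in LOF against Krt14 6w and 29 in GOF against Inv. A limma-voom fit called 16 higher and 0 lower. The shares of all genes above are those of the main fit at the adjusted threshold, and none is given for these counts. Xist was at 194 or less in all 4 libraries of this comparison, and 13 of the same 15 genes were called with log2 Xist as a covariate. Of the keratinocyte markers, 5 of 8 were higher in Krt14 8w than in Inv and 0 were lower, among them Epcam (log2 change 1.46) and Krt1 (1.69), and 4 of 8 melanocyte markers were lower. The part of these markers' cells in the result was not tested. The count was 8 to 10 on leaving out any of the 4 libraries, 8 of them without Inv replicate 2.

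Cenpa had 1557 and 1500 normalized counts in Krt14 8w, against 890 and 807 in Inv (log2 change 0.85 ± 0.11 SE, limma adjusted p = 0.000455). Cenpe had 3663 and 3453 in Krt14 8w and 2078 and 2096 in Inv (0.77 ± 0.13 SE, adjusted p = 0.00185). The Krt14 8w libraries were the highest of all 10 for both genes. Among outer kinetochore genes Spc25 had the smallest p, with 627 and 656 in Krt14 8w and 426 and 314 in Inv (0.81 ± 0.22 SE, adjusted p = 0.0249), and Ndc80 and Nuf2 were also higher. Of the checkpoint genes, Bub1b and Ttk were higher, Bub1b with 1796 and 1750 in Krt14 8w against 1022 and 999 in Inv (0.81 ± 0.11 SE, adjusted p = 0.000589). All 3 passenger genes were higher, with log2 changes of 0.52 for Incenp, 0.53 for Aurkb and 0.67 ± 0.10 (SE, adjusted p = 0.00112) for Cdca8, which had 1583 and 1546 in Krt14 8w and 999 and 971 in Inv. Of the Ska genes, Ska1 and Ska3 were higher and Ska2 was not called. Ska3 had 470 and 462 in Krt14 8w and 280 and 303 in Inv (0.68 ± 0.18 SE, adjusted p = 0.0216). Plk1 had the largest difference, with 1234 and 1151 in Krt14 8w and 599 and 520 in Inv (1.09 ± 0.20 SE, adjusted p = 0.00366, and 0.0524 without Inv replicate 2). Cdc20 had 1597 and 1584 in Krt14 8w and 920 and 908 in Inv (0.80 ± 0.11 SE, adjusted p = 0.000612). Elovl1, which overlaps Cdc20, had 1067 and 1061 in Krt14 8w and 446 and 479 in Inv. The share of Elovl1 reads in the Cdc20 value was not tested. The Krt14 8w libraries lay above the Inv libraries for each of these genes, and for Ska2 only just, with 477 and 472 against 344 and 470. The largest change in the other direction was that of Zwint, at 789 and 806 in Krt14 8w and 997 and 1082 in Inv, which did not pass (-0.38 ± 0.14 SE, limma adjusted p = 0.0805).

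Of the 15 genes higher in Krt14 8w than in Inv, 14 (93.3%) also fell in LOF against Krt14 6w, which makes up 77.8% of the 18 falls with LOF. Over all genes tested, 64% of the 1800 that were higher in Krt14 8w fell in LOF, 45.9% of the falls with LOF. The 2 comparisons share no library, but the single model gives each gene the same estimate of spread in both. Their calls are therefore not independent. Spc25 was the exception. Relative to the 12 mitotic genes, of which 11 were higher in Krt14 8w (median log2 change 0.74), 20 of the 38 genes were lower and 0 were higher, where 58.5% of all genes were lower and 2.79% higher (61.2% called). The 38 genes had a median of -0.38 on this relative scale. The 20 included 8 of the 12 inner kinetochore genes, all 4 of the Mis12 complex, and Mad2l1, Mad1l1, Bub1 and Bub3. Cenpa, Cenpe, the passenger genes, Cdc20 and Plk1 were not among them.

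**Figure D4:**
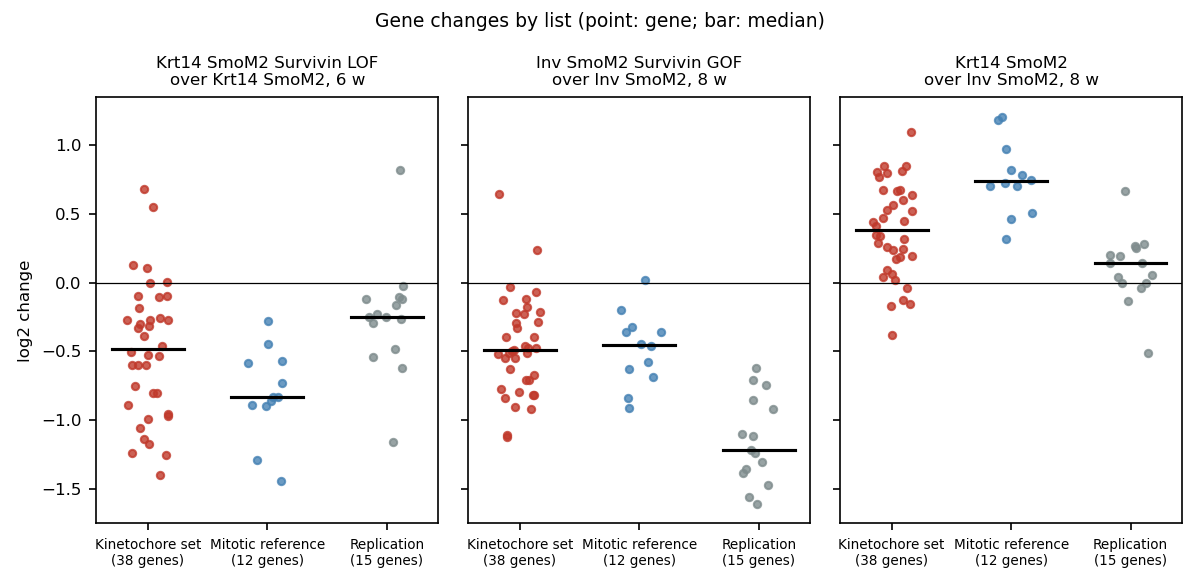
Log2 change of each gene (points) and the median (bar) for the 38 genes, 12 mitotic genes and 15 replication genes in the 3 main comparisons. The median of the 38 genes lies above that of the mitotic genes in LOF over Krt14 6w (-0.48 and -0.83), close to it in GOF over Inv (-0.49 and -0.45) and below it in Krt14 8w over Inv (0.38 and 0.74).

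Between 8 and 6 weeks in Krt14-CREER cells, 0 of the 38 genes were called, where 4.88% of all genes were, 4.02% higher and 0.855% lower. At unadjusted p under 0.05, 0 were called as well, and limma-voom called 0. The smallest adjusted p was 0.253, for Mad1l1, with 1028 and 1072 normalized counts in Krt14 8w and 817 and 824 in Krt14 6w. The log2 changes ran from -0.30 to 0.36.

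GOF cells were also set against Krt14 8w, the basal-driven cells of the same week. In GOF, 30 of the 38 genes were lower than in Krt14 8w and 0 were higher, where 27.7% of all genes were called, 12.5% lower and 15.2% higher. The median log2 change was -0.87 over the 38 genes. Bub1b had 782 and 676 normalized counts in GOF, against 1796 and 1750 in Krt14 8w (-1.28 ± 0.11 SE, limma adjusted p = 2.87e-05). Cdca8 (746 and 687 in GOF, 1583 and 1546 in Krt14 8w, log2 change -1.13 ± 0.10 SE) and Cdc20 (727 and 726 in GOF, 1597 and 1584 in Krt14 8w, -1.13 ± 0.11 SE) followed. Elovl1, which overlaps Cdc20, had 525 and 458 in GOF and 1067 and 1061 in Krt14 8w. All 6 checkpoint genes, the 3 passenger genes, the 3 Ska genes and both anaphase control genes were lower. With log2 Xist as a covariate 0 were called, and with Xist on a linear scale 29 were lower.

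A wider list of 62 genes of the same pathway (other centromere proteins, the anaphase-promoting complex, condensin, cohesin and spindle genes, and Birc5) was counted beside the 38. With LOF, 28 of the 62 fell and 2 rose, against 11.4% and 19.5% of all genes. Pttg1, the securin that anaphase destroys, had 243 and 219 normalized counts in LOF and 641 and 607 in Krt14 6w (log2 change -1.43), and the dynein adaptor gene Spdl1 had 320 and 271 against 610 and 589 (-1.02). The rises were Hjurp, the chaperone that loads Cenpa, with 3041 and 3630 in LOF and 2050 and 2128 in Krt14 6w (0.67), and Anapc7 (0.39). Cenpa and its chaperone gene thus changed in opposite directions in LOF. With GOF, 20 fell and 3 rose, against 8.4% and 6.87% of all genes. Kntc1, a partner of Zw10, had 501 and 406 in GOF and 1293 and 1389 in Inv (-1.57), and the condensin II gene Ncapg2 fell by 0.84. Birc5 (5.44) and Anapc2 (0.57) led the rises. In Krt14 8w, 17 were higher than in Inv and 2 were lower, against 8.18% and 11.4% of all genes. Birc5 (1.94) and the microtubule depolymerase gene Kif2c (0.85) led those that were higher, and Itgb3bp (-1.14) and Anapc7 (-0.42) were the lower ones.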

How the data were processed

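Bulk polyA RNA-seq libraries (10, in 5 groups of 2 by genotype and weeks) were made with the Ovation Solo system, per the labels' protocols. The submitters' processing notes name STAR, HTSeq and GRCm38 (mm10). No source used here states versions, the annotation release or the strand setting. The values that the authors deposited are normalized counts, treated as a score: each column sums to 20011195 to 20014054, and 99.3% to 99.9% of low values were whole multiples of 1 step per library, rounded up (step 2.25 to 2.60), which gives 7693155 to 8870758 reads per library. PCR reads are not independent molecules, so the value of 3 reads covers counting error only.

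Genes with at least 10 in at least 2 libraries (21995) were fitted as log2(value + 1) in 1 limma 3.58.1 model (R 4.3.3) of 5 group means, eBayes with trend and 5 residual degrees of freedom. Tests were two-sided, and p-values were Benjamini-Hochberg adjusted over all genes within each comparison. With 2 libraries against 2, an exact permutation test cannot go below p = 0.333. Fold changes on this scale understate low genes. The replicate numbers were not used to pair libraries. Exon lengths are the union over GENCODE M21 transcripts. Alternatives covered pseudocount, filter, scaling, the groups fitted, array weights, an Xist covariate, a replicate block and leaving out each library. A limma-voom fit on the recovered reads and a linear Xist covariate were chosen after seeing the data.

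The 38 members, the gene lists and the rules were chosen with earlier results of these data known. Genes given with full statistics are the called member with the smallest p in each of 7 roles, the largest rise and fall, and called members against the majority.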

Additional observations from a re-analysis of the deposited data

How the results depend on the processing

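Of 448 values of the named genes under alternatives, 388 kept their direction and side of the threshold, 59 kept their direction only, and 1 reversed, Cenpe in LOF with log2 Xist as a covariate (0.0586). With that covariate, the genes called numbered 1 in LOF and 0 relative to the mitotic genes, 0 in GOF and 0 relative to them, and 0 in GOF against Krt14 8w. With Xist on a linear scale, chosen after seeing the data like limma-voom, they numbered 11 in LOF relative to the mitotic genes, 6 in GOF, 2 in GOF relative to them, and 15 for the LOF change minus the GOF change. Log2 Xist is nearly the same column as the presence of a Survivin allele, so this fit has little information on LOF or GOF. Fitting only the groups compared gave 0 in GOF and 2 relative to the mitotic genes, array weights gave 11 in GOF and 24 in Krt14 8w against Inv, and median-of-ratios rescaling gave 14 for the LOF change minus the GOF change. The cause was not tested. Leaving out each library gave 17 to 19 in LOF, 12 to 17 relative to the mitotic genes, 4 to 24 in GOF, 2 to 11 relative to them, 8 to 10 in Krt14 8w against Inv, 12 to 15 relative to them, 26 to 31 in GOF against Krt14 8w, and 5 to 14 for the LOF change minus the GOF change. A lone library is then assumed to vary like the other groups. Same-numbered libraries did not deviate together (correlations of -0.0542 to 0.0407 across genes), so the numbers were not taken to pair them. With a replicate block, 19 were called in LOF, 19 in GOF, 15 in Krt14 8w against Inv and 30 in GOF against Krt14 8w. The shares of all genes called under these alternatives are not given, here or in the paragraphs above. A shift in these counts therefore cannot be told apart from a shift over the whole table. Each of the 38 genes lay at 82 or more in every library, and the 2 libraries per group limit the precision.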
